A study of Mus musculus with 2 samples.

Results

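The 9 mouse genes described here are the neutrophil-attracting chemokines Cxcl1, Cxcl2 and Cxcl3, their receptor Cxcr2, the granulocyte growth factor receptor Csf3r, and 4 genes that neutrophils express strongly, S100a8, S100a9, G0s2 and Retnlg. They were taken by name from the 33696 mouse genes of the count matrix, and all 9 were found. The counts came from 1 droplet-based single-cell RNA library of CD45+ cells, sorted by flow cytometry from subcutaneous tumours of the mouse colon carcinoma line MC38. The host animals are labelled human FCR (hFcgR) mice, and their alleles are not spelled out. Mice were treated with human IgG1 antibodies against mouse GITR, a costimulatory receptor of T cells. The deposited labels call N297A an Fc-null agonist and GA-aFuc an Fc-enhanced agonist. They call GITR/Syn GA-aFuc an Fc-enhanced non-agonist. The antibodies were given at 100 µg per injection in 2 injections 3 days apart, starting when tumours measured about 115 mm3. The cells were taken 4 days after treatment. Cells of the mice carried 6 hashtag antibodies, and each hashtag was taken as 1 mouse, since the deposited cell table gave nearly all cells of a hashtag the same treatment. The library held 2 mice given the N297A variant, 1 given GA-aFuc, 1 given GITR/Syn GA-aFuc and 2 Untreated mice, which the series text describes as given PBS, although that text states 3 mice per treatment. The comparison asked how antibodies that differ in agonism and in the Fc part change the immune cells of the tumour. Strain, sex and age were not given in the sources used here, and where a treatment has 1 mouse, the mouse and the treatment cannot be told apart.

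The deposited table named 10 cell types, none of them neutrophils. It held 8716 usable cells of this library, 1379 to 1519 per mouse, with 16479710 to 19339165 mouse UMIs in each mouse and a median of 11989 UMIs per cell. A UMI is 1 captured RNA molecule, and levels are given as CPM, the UMIs of a gene per 1000000 mouse UMIs. A further 4198 barcodes of at least 1000 mouse UMIs lay outside the table, of which 2883 were assigned to 1 mouse by a second hashtag of at most 20% of the hashtag UMIs. Barcodes of 10 to 100 UMIs served as a measure of free RNA.

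Neutrophils reach inflamed tissue and tumours along gradients of CXC chemokines that signal through CXCR2. In the mouse, Cxcl1, Cxcl2 and Cxcl3 are close relatives encoded in 1 gene cluster, and macrophages, monocytes, stromal cells and neutrophils themselves can produce them after NF-kB activation. Csf3r binds G-CSF, the main growth factor of the neutrophil lineage. S100a8 and S100a9 pair to form calprotectin, an abundant protein of the neutrophil cytosol, G0s2 inhibits the triglyceride lipase ATGL, and Retnlg encodes a resistin-like secreted protein of mouse neutrophils and their precursors.

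The 120 bases before the start site are shown for the 3 ligands because all 3 held the letters GGGAATTTCCC, printed in capitals, the longest run they share before their starts and one that contains a known NF-kB binding sequence. They are on the + strand of chromosome 5 of RefSeq's GRCm38.p6 assembly, at chr5:90891125-90891244 for Cxcl1, chr5:90903779-90903898 for Cxcl2 and chr5:90785981-90786100 for Cxcl3.
Cxcl1: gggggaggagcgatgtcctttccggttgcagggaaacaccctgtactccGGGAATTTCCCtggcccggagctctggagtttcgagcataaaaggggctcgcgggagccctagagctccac
Cxcl2: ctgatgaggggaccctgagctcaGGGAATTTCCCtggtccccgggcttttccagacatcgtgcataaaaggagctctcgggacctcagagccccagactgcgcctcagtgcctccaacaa
Cxcl3: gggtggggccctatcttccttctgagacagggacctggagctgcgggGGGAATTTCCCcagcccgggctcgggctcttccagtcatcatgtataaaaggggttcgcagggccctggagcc
The 11 letters lay 71 to 61 bases before the start of Cxcl1, 97 to 87 before that of Cxcl2 and 73 to 63 before that of Cxcl3, and the next longest shared run had 8 letters. The start sites of Cxcl1 and Cxcl2 were 12.7 kb apart, and that of Cxcl3 lay 105 kb from that of Cxcl1 and 118 kb from that of Cxcl2. All 9 genes had a RefSeq promoter of 300 bases (250 before and 50 after the start), and the 11 letters, searched on both strands, were not in the other 6. They occurred in 14 of the 32851 promoters in the table, or 0.0426%, and 3 of these 14 are the ligands from which they were read. A match is a description of the sequence, and binding was not measured.

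In the annotated cells Cxcl2 and Csf3r were the well-counted genes, and both lay almost wholly in monocytes and macrophages. Cxcl2 had 35264 UMIs, of which 53.4% were in monocytes and 44.7% in macrophages. Csf3r had 3668 UMIs, with 36.6% in monocytes and 61.6% in macrophages. The other 7 genes were sparse: Cxcl3 had 526 UMIs, Cxcl1 246, S100a8 121, S100a9 90, G0s2 79, Cxcr2 36 and Retnlg 9. For Cxcl1, Cxcr2, S100a8, S100a9, G0s2 and Retnlg the pooled level in monocytes, 0.0807 to 4.03 CPM, was below the level in free RNA, 1.25 to 34.7 CPM. S100a9, for example, stood at 1.81 CPM in monocytes and 0.530 CPM in macrophages, against 34.7 CPM in free RNA. These low pooled levels are therefore not read as expression across the annotated cells. They do not speak for single cells, since 29 of the 100 monocyte UMIs of Cxcl1 were in 1 cell.

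Cxcl2 was highest in monocytes. It stood at 778 and 368 CPM in the N297A mice, 1097 in the GA-aFuc mouse, 1483 in the GITR/Syn GA-aFuc mouse and 523 and 527 in the Untreated mice (796 ± 422 CPM, SD, n = 6 mice). Macrophages had 268 and 134 CPM in the N297A mice, 323 in the GA-aFuc mouse, 410 in the GITR/Syn GA-aFuc mouse and 167 and 182 in the Untreated mice (247 ± 106). The ranges of the 2 cell types overlapped across mice, but within every mouse monocytes were higher. Type 2 dendritic cells (cDC2) had 74.2 ± 45.1 CPM, NK cells 25.7 ± 38.3 and CD8 T cells 13.2 ± 6.78 (SD, n = 6 mice each). NK cells and CD8 T cells were not apart beyond their spread, and the highest NK value, 103 CPM in the GA-aFuc mouse, stood far above the other 5 mice at 3.82 to 17.4 CPM. Free RNA held 333 CPM of Cxcl2, above the macrophage mean and below the monocyte mean.

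Csf3r was also highest in monocytes, followed by macrophages and cDC2, with much less spread between mice in the first 2. Monocytes had 50.2 and 61.9 CPM in the N297A mice, 55.3 in the GA-aFuc mouse, 57.0 in the GITR/Syn GA-aFuc mouse and 53.7 and 49.8 in the Untreated mice (54.7 ± 4.54). Macrophages had 31.1 and 42.5 CPM in the N297A mice, 38.7 in the GA-aFuc mouse, 32.3 in the GITR/Syn GA-aFuc mouse and 37.7 and 28.3 in the Untreated mice (35.1 ± 5.39). The 2 cell types did not overlap. cDC2 had 8.32 ± 7.84 CPM, CD8 T cells 4.03 ± 4.37 and NK cells 1.15 ± 1.06, and these 3 overlapped.

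UMIs were summed per mouse and cell type and tested with edgeR's quasi-likelihood test with the mouse as a block, adjusted by Benjamini-Hochberg over 10314 genes. Only Cxcl2 and Csf3r passed the filter on low counts. Both were called in all 4 contrasts, against a background of 55.2% of genes called between monocytes and macrophages, 42.1% between cDC2 and macrophages, 38.6% between cDC2 and monocytes and 74.2% between monocytes and CD8 T cells. Cxcl2 was higher in monocytes than in macrophages by 1.77 on the log2 scale (SE 0.25, adjusted p = 3.24e-06), and Csf3r by 0.78 (SE 0.11, adjusted p = 4.26e-07), each in 6 of 6 mice. In cDC2 relative to macrophages the log2 difference was -1.54 for Cxcl2 (SE 0.39, adjusted p = 0.00291) and -2.07 for Csf3r (SE 0.37, adjusted p = 1.75e-05). In cDC2 relative to monocytes it was -3.30 for Cxcl2 (SE 0.37, adjusted p = 2.27e-07) and -2.84 for Csf3r (SE 0.34, adjusted p = 1.86e-08). In monocytes relative to CD8 T cells it was 5.97 for Cxcl2 (SE 0.39, adjusted p = 5.48e-12) and 4.13 for Csf3r (SE 0.25, adjusted p = 1.30e-16). The cell types were named by the authors from the same cells, so these tests measure how steady the differences were over mice.

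**Figure D1:**
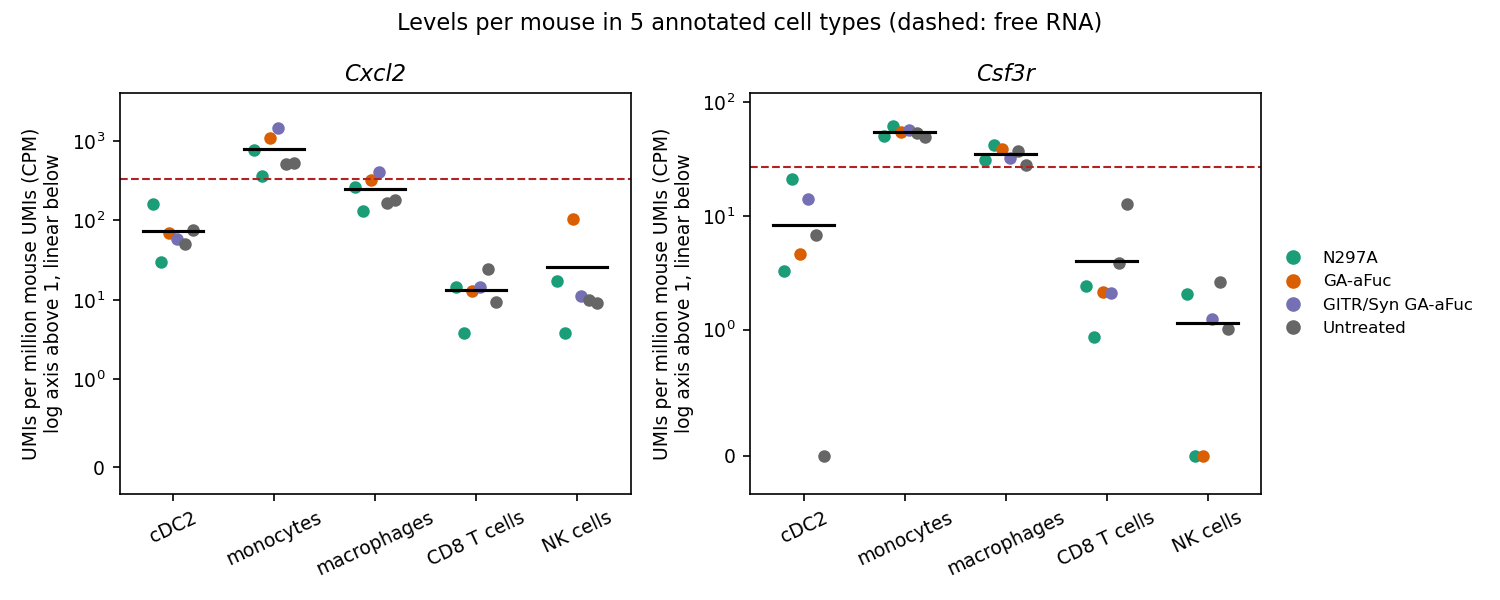
Levels of Cxcl2 (left) and Csf3r (right) in CPM, on an axis that is logarithmic above 1 and linear below, for 5 annotated cell types. Each point is 1 mouse, coloured by treatment, the black line is the mean of 6 mice and the dashed line the level in free RNA. Monocytes stand highest for both genes, at 796 ± 422 CPM for Cxcl2 and 54.7 ± 4.54 CPM for Csf3r.

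Monocytes are sequenced less deeply than macrophages (median 9337 and 15222 UMIs per cell), so the share of cells with a UMI was also taken after thinning each cell to 2000 UMIs. Cxcl2 was then detected in 32.7% of monocytes (25.7 to 44.4% over mice), 19.6% of macrophages (14.0 to 25.2%) and 12.1% of cDC2, against 2.43% in CD8 T cells and 2.35% in NK cells. Before thinning the shares were 52.5% of monocytes, 45.1% of macrophages, 9.70% in CD8 T cells and 9.13% in NK cells. Csf3r was detected after thinning in 10.9% of monocytes and 7.10% of macrophages, against 0.441% of CD8 T cells, which should lack it.

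Genes related to these pathways were compared between monocytes and macrophages in the same fit, where the median of all genes was 0.03 on the log2 scale and 30.7% of genes were higher in monocytes. Of 21 other neutrophil genes 8 were measured well enough to test and all 8 were higher in monocytes, with a median log2 difference of 1.82. Among them Slpi, a protease inhibitor, differed by 4.44 and Clec4e, a receptor for mycobacterial glycolipid, by 3.85, while Hdc, the histamine-forming enzyme, differed by 2.99. Of 8 NF-kB feedback and early genes 6 were higher in monocytes and none lower, with a median of 0.67. Ptgs2, the inducible cyclooxygenase, differed by 1.81 and Ier3 by 1.61. Of 6 tested granulocyte growth and inducing cytokines and receptors 5 were higher, with a median of 1.24, among them Il1b at 2.08, its decoy receptor Il1r2 at 2.06 and Il1a at 1.51. Of 7 other chemokine and receptor genes only Pf4 and Mif could be tested, and Pf4, the platelet factor CXCL4, differed by -2.65.

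Within monocytes and macrophages Cxcl2 was concentrated in a minority of cells. The top 10% of monocytes, 249 of 2486 cells, held 68.8% of the monocyte UMIs of Cxcl2 (57.9 to 74.4% over mice), and the top 10% of macrophages, 410 of 4104 cells, held 72.6% (62.8 to 78.1%). The same share for Csf3r was 46.0% in monocytes and 45.4% in macrophages. Cxcl1 and Cxcl3 UMIs sat in very few cells. Cxcl1 had a UMI in 27 monocytes and 65 macrophages, and Cxcl3 in 43 monocytes and 32 macrophages, with 168 of the 407 monocyte UMIs of Cxcl3 in 1 cell and 29 of the 100 monocyte UMIs of Cxcl1 in another.

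Monocytes with Cxcl1 or Cxcl3 were mostly cells that also held Cxcl2. Of the 27 monocytes with a Cxcl1 UMI 25 also had Cxcl2 (92.6%), and of the 43 with a Cxcl3 UMI 39 did (90.7%), against 52.5% of all monocytes. Their median Cxcl2 count was 13 UMIs in the Cxcl1 cells and 27 in the Cxcl3 cells, against 5 in all monocytes with Cxcl2. In macrophages 46 of 65 cells with Cxcl1 (70.8%) and 20 of 32 with Cxcl3 (62.5%) also had Cxcl2, against 45.1% of all macrophages. Cxcl1 and Cxcl3 coincided in 6 monocytes and 4 macrophages. These cells come from 6 mice and are not independent, so no test is given.

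The ligands differed between the authors' clusters, which were made from the same cells, so the values are a description. Among 15 monocyte clusters the pooled level of Cxcl2 ran from 91.5 CPM in cluster 41 to 2258 in cluster 0, with a median of 488, and among 23 macrophage clusters from 56.0 CPM in cluster 25 to 1018 in cluster 9, with a median of 184. Cluster 0, with 284 monocytes, had 1447 and 996 CPM in the N297A mice, 3512 in the GA-aFuc mouse, 5040 in the GITR/Syn GA-aFuc mouse and 1527 and 1025 in the Untreated mice. It made up 9.40 and 10.5% of monocytes in the N297A mice, 15.7% in the GA-aFuc mouse, 12.9% in the GITR/Syn GA-aFuc mouse and 10.8 and 10.7% in the Untreated mice. It held 46.7% of the monocyte Cxcl2 UMIs in the GA-aFuc mouse and 49.4% in the GITR/Syn GA-aFuc mouse, against 18.6 to 31.0% in the other 4. Both mice were thus highest in its share of cells and in its share of Cxcl2.

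Cxcl3 and Cxcl1 followed the Cxcl2-high clusters only in part. Cxcl3 reached 143 CPM in monocyte cluster 8, 33.5 in macrophage cluster 9 and 22.6 in cluster 0, and 4 monocyte and 10 macrophage clusters had none. The value of cluster 8 came mainly from 1 mouse, with 20.7 and 0 CPM in the N297A mice, 25.3 in the GA-aFuc mouse, 952 in the GITR/Syn GA-aFuc mouse and 0 and 11.9 in the Untreated mice, and 168 of its 286 UMIs were in 1 cell. Cxcl1 reached 14.9 CPM in cluster 0 and 10.9 in cluster 9. Among the neutrophil genes, S100a8 was highest in cluster 0 as well, at 14.9 CPM, with 35.8 and 7.05 CPM in the N297A mice, 26.1 in the GA-aFuc mouse, 17.9 in the GITR/Syn GA-aFuc mouse and 6.92 and 0 in the Untreated mice. Csf3r reached 111 CPM in cluster 42 and 81.1 in cluster 27. S100a9 reached 19.0 CPM in cluster 27, but all 29 UMIs were in the GITR/Syn GA-aFuc mouse and 26 of them in 1 cell. G0s2 reached 15.0 CPM in cluster 27, with 4.59 and 39.4 CPM in the N297A mice, 0 in the GA-aFuc mouse, 44.9 in the GITR/Syn GA-aFuc mouse and 0 and 3.36 in the Untreated mice. Of 8716 annotated cells 5 had a UMI of at least 3 of the 6 genes Cxcr2, Csf3r, Retnlg, G0s2, S100a8 and S100a9, and 3 of these were monocytes of the GITR/Syn GA-aFuc mouse in clusters 27 and 42.

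**Figure D2:**
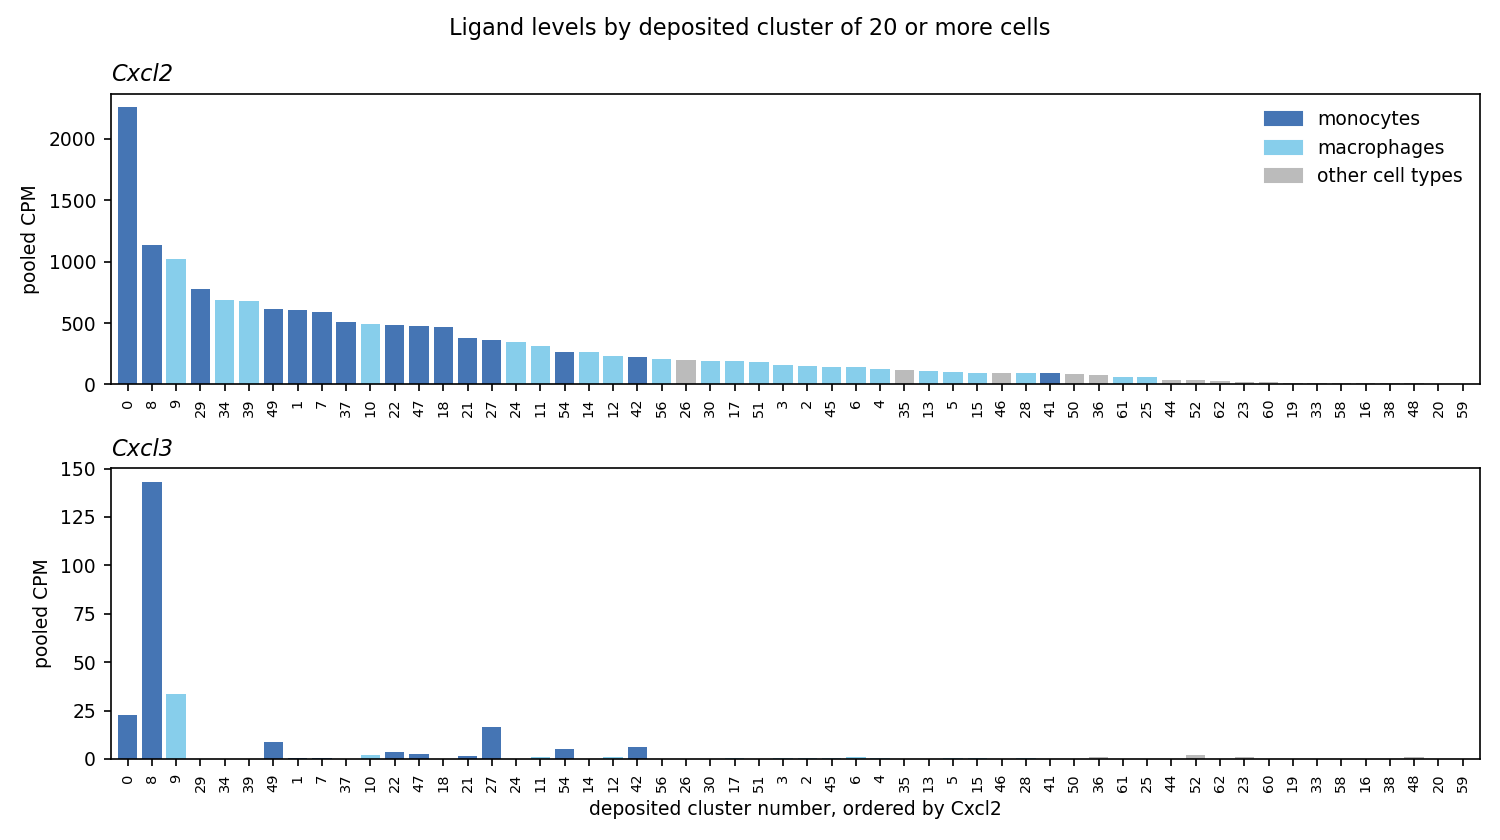
Pooled levels of Cxcl2 (top) and Cxcl3 (bottom) in CPM in the deposited clusters of at least 20 cells, ordered by Cxcl2. Bars are coloured by the authors' cell type, with monocytes dark blue, macrophages light blue and other cells grey. Cxcl2 is highest in monocyte cluster 0 (2258 CPM) and Cxcl3 in monocyte cluster 8 (143 CPM), where 168 of 286 UMIs were in 1 cell of the GITR/Syn GA-aFuc mouse.

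Over 56 clusters of at least 20 cells, the genes whose log2(CPM + 1) was most like that of Cxcl2 were Ptgs2 (Pearson r 0.92), Cd14, the co-receptor for lipopolysaccharide (0.92), Trem1, an amplifier of myeloid inflammation (0.90), the phosphatase gene Dusp1 (0.90) and Ier3 (0.89), among 6050 genes. Among the 9 genes the nearest to Cxcl2 was Csf3r (0.84), ahead of Cxcl1 (0.53) and Cxcl3 (0.48). The genes most like S100a8 were Hp (0.71), Plcb1 (0.69), Fbxl5 (0.69), Sod2 (0.68) and F10 (0.67), at S100a8 levels of at most 14.9 CPM. The clusters share 1 library and the same 6 mice.

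Most of the neutrophil-gene UMIs were outside the cell table. Barcodes outside it were called neutrophil-gene barcodes where at least 3 of the 6 genes Cxcr2, Csf3r, Retnlg, G0s2, S100a8 and S100a9 had a UMI, which held for 70 of 2883. Just outside the limit, 30 barcodes had 2 of the 6 genes, and just inside it 14 had 3, while 56 had 4 or more. The 70 barcodes held 98.4% of the S100a9 UMIs of the outside barcodes, 93.1% of Retnlg, 91.0% of S100a8, 76.7% each of G0s2 and Cxcr2, and 21.6% of Csf3r. They were shallow, with a median of 2987 UMIs (1475 to 24972), and 59 of them were under 5000 UMIs. No barcode of 500 to 999 UMIs met the rule.

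Neutrophil-gene barcodes were unevenly spread over the mice. There were 7 of 1960 barcodes (0.357%, exact 95% interval 0.144 to 0.734) and 4 of 1914 (0.209%, 0.0570 to 0.534) in the N297A mice, and 7 of 1963 (0.357%, 0.143 to 0.733) in the GA-aFuc mouse. The GITR/Syn GA-aFuc mouse had 45 of 1848 (2.44%, 1.78 to 3.24), and the Untreated mice 4 of 2016 (0.198%, 0.0541 to 0.507) and 3 of 1905 (0.157%, 0.0325 to 0.460). The interval of the GITR/Syn GA-aFuc mouse did not meet that of any other mouse, but the intervals cover counting error only, and 1 mouse gives no test of the treatment. The N297A mice averaged 0.283% and the Untreated mice 0.178%, a difference of 0.105 percentage points (two-sided exact permutation test p = 0.333, the smallest that 2 mice against 2 allow).

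**Figure D3:**
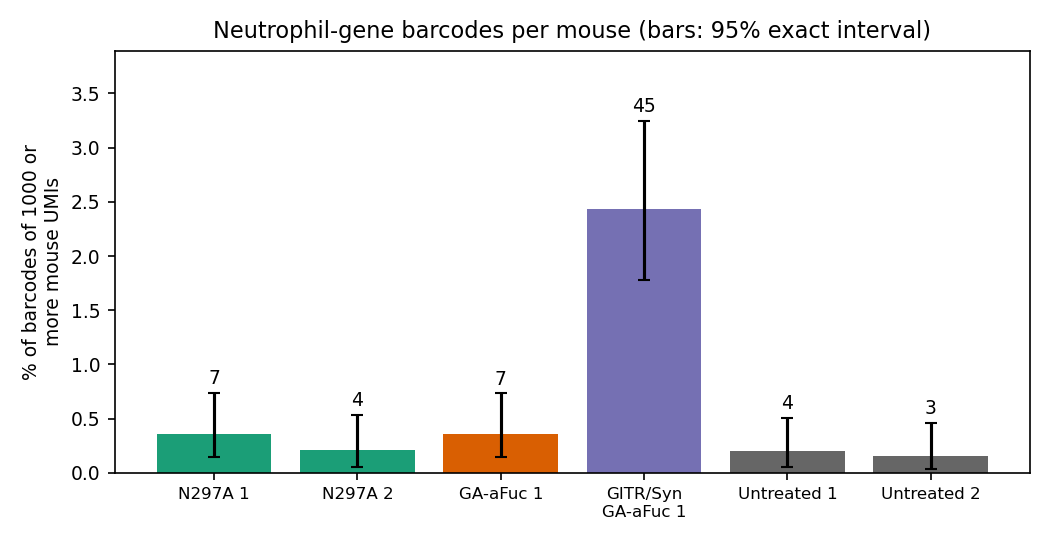
Share of neutrophil-gene barcodes among all barcodes of at least 1000 mouse UMIs, in percent, for each mouse. Bars are the shares, whiskers the exact 95% binomial intervals, which cover counting error only, and the numbers the barcodes counted. The GITR/Syn GA-aFuc mouse stands at 2.44%, and the other 5 mice between 0.157 and 0.357%.

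The levels of the 6 genes in these barcodes are a description, since they chose them. S100a9 stood at 10520 CPM, S100a8 at 7734, G0s2 at 1784, Retnlg at 594, Csf3r at 503 and Cxcr2 at 345. In annotated monocytes Csf3r was at 54.2 CPM and the other 5 at 0.0807 to 3.47. Across mice S100a9 stood at 6319 and 28823 CPM in the N297A mice, 4825 in the GA-aFuc mouse, 14700 in the GITR/Syn GA-aFuc mouse and 9596 and 9826 in the Untreated mice. All 6 mice thus had barcodes with S100a9 far above its free RNA level of 34.7 CPM.

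The chemokine ligands, which the rule did not use, split. Cxcl2 was present in 66 of the 70 barcodes and reached 14982 CPM (counting interval 14586 to 15386) in them, against 759 CPM in annotated monocytes, a ratio of 19.7. It stood at 4127 and 10508 CPM in the N297A mice, 7868 in the GA-aFuc mouse, 26928 in the GITR/Syn GA-aFuc mouse and 9420 and 962 in the Untreated mice. Each value was above the monocyte level of the same mouse, although the lower Untreated value rested on 28 UMIs. The median barcode held 40 Cxcl2 UMIs and the highest 603, and 10 barcodes held 52.7% of all of them.

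Cxcl3 reached 1762 CPM (1628 to 1904) in the 70 barcodes, against 16.4 CPM in monocytes, a ratio of 107. It was found in 25 barcodes, and stood at 468 and 0 CPM in the N297A mice, 1192 in the GA-aFuc mouse, 3250 in the GITR/Syn GA-aFuc mouse and 43.8 and 34.4 in the Untreated mice, the Untreated values on 1 UMI each. Of its 638 UMIs, 121 were thus in the GA-aFuc mouse and 493 in the GITR/Syn GA-aFuc mouse. Cxcl1 had 0 UMIs in these barcodes, which allows a level of up to 8.28 CPM, above the 4.03 CPM of monocytes. A fall in Cxcl1, or a rise within that limit, was therefore not detectable at this depth. An excess over monocytes as large as that of Cxcl2 (ratio 19.7) or Cxcl3 (107) was not present. Of the 70 barcodes 63 had a UMI of a Cd3 or C1q gene, which mark T cells and macrophages, and in the other 7 barcodes Cxcl2 stood at 46407 CPM and Cxcl3 at 0. The mice had 3 to 45 such barcodes, and all but 1 mouse had under 20, so no model was fitted to the ligands here.

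**Figure D4:**
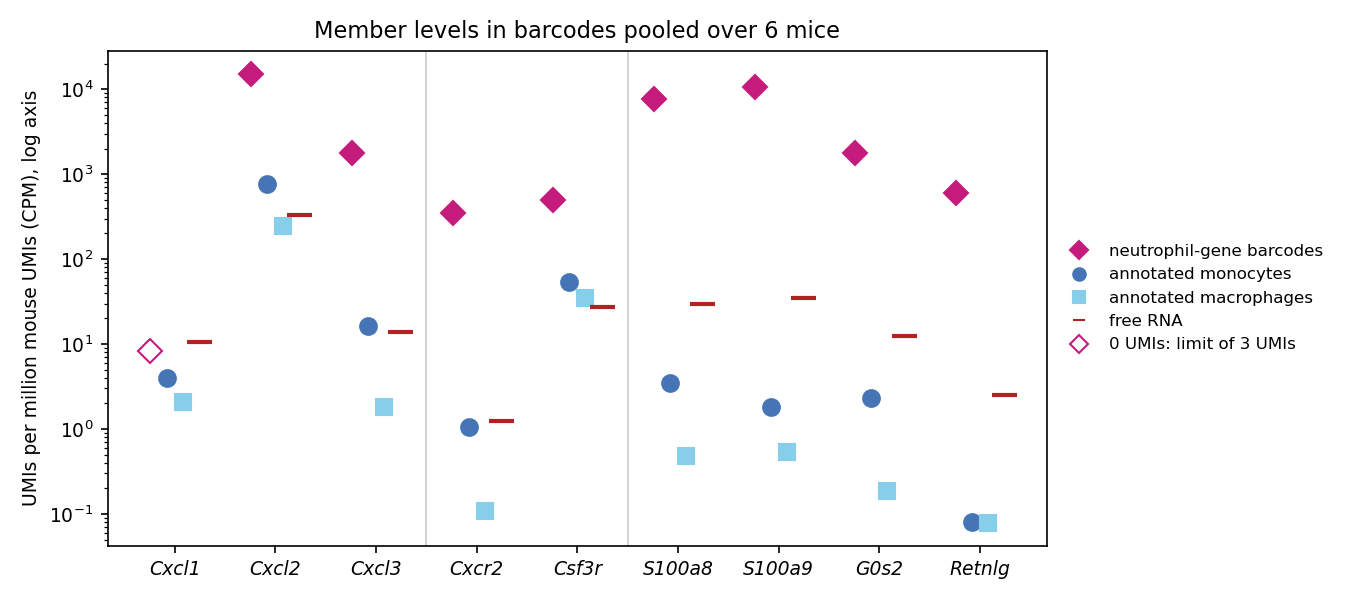
Levels of the 9 genes in CPM, on a logarithmic axis, pooled over 6 mice. Diamonds are the 70 neutrophil-gene barcodes, circles annotated monocytes, squares annotated macrophages and dashes free RNA, and the open diamond marks the limit that 0 Cxcl1 UMIs allow. Cxcl2 and Cxcl3 stand at 14982 and 1762 CPM in the neutrophil-gene barcodes, against 759 and 16.4 CPM in monocytes.

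The excess of Cxcl2 and Cxcl3 did not rest on the GITR/Syn GA-aFuc mouse alone. Its 45 barcodes had 26928 CPM of Cxcl2 and 3250 of Cxcl3, and the 25 barcodes of the other 5 mice 6371 and 689. For Cxcl3, 121 of the 145 UMIs of those 5 mice were in the GA-aFuc mouse. Of 24 neutrophil markers 22 were detected in the 70 barcodes, with Camp and Elane at 0. Their summed level was 26024 CPM, against 751 CPM in monocytes. The marker list includes genes that chose the barcodes, and S100a9 and S100a8 alone held 3810 and 2801 of its 9425 UMIs. The sum was therefore set largely by the rule and is a description. Macrophage markers were found in 69 of the 70 barcodes and summed to 3560 CPM in the GITR/Syn GA-aFuc mouse and 12201 CPM in the other 5 (801 to 15861 by mouse), against 11479 CPM in annotated monocytes and 23675 in macrophages. Monocyte markers summed to 1312 CPM in the GITR/Syn GA-aFuc mouse, with Chil3, Vcan and Fn1 at 0, and 1425 CPM in the other 5, against 6015 CPM in monocytes. Cxcl2 in annotated macrophages stood at 246 CPM. The part of these other cells' RNA in the levels was not tested. In the GA-aFuc mouse the 7 barcodes had a median of 18461 UMIs, far above the 2987 of the 70 together.

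Markers of other lineages were mostly near 0 in these barcodes. Among 3 endothelial markers Cdh5 and Kdr were at 0, but Pecam1, which leukocytes and platelets also express, stood at 185 CPM in 16 barcodes (98.9 in the GITR/Syn GA-aFuc mouse and 247 in the other 5), against 81.8 CPM in monocytes and 120 in macrophages. T cell markers summed to 41.4 CPM with Cd4 at 0, against 17.3 CPM in monocytes, NK, B and dendritic cell markers to 5.52 CPM each, eosinophil markers to 13.8 and mast cell or basophil markers to 8.28, and Krt8, Krt18 and Epcam were at 0. Ptprc, which encodes the sorted CD45, stood at 919 CPM, against 966 CPM in monocytes.

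Other neutrophil genes accompanied the 6 that chose the barcodes. Of 21 genes 18 were above their monocyte level and 14 of these had a counting interval above it, against 26.1% and 7.67% of the 21181 mouse genes with a UMI in either group. Hdc stood at 936 CPM, against 20.6 in monocytes, and Mmp9, the neutrophil gelatinase, at 276 CPM, against 0.565. Lcn2, an iron-trapping granule protein, stood at 174 CPM, against 1.17 in monocytes. Among granule genes of neutrophil precursors, Camp and Elane were at 0 and Ngp and Mpo on 1 and 2 UMIs. Ltf, another granule gene, went the other way, at 44.2 CPM on 16 UMIs in 12 barcodes, against 1.09 in monocytes. Of these 16 UMIs 15 were in the GITR/Syn GA-aFuc mouse. Cd177 had 1 UMI, at 2.76 CPM against 10.3 in monocytes, and Ly6g, the usual surface marker of mouse neutrophils, had 1 UMI.

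Of 11 granulocyte growth and inducing cytokines and receptors, 5 were above their monocyte level, all with a counting interval above it, and 6 were below. Il1b stood at 6400 CPM, against 2387 in monocytes, Il1r2 at 1055, against 252, and Csf1, the macrophage growth factor, at 395, against 9.36. Among the lower ones, the receptor Il17ra stood at 60.7 CPM, against 63.9 in monocytes, and Il1r1 on 1 UMI at 2.76 CPM, against 6.37. In the pooled barcodes all 8 NF-kB feedback and early genes were above their monocyte level, 7 with a counting interval above it, against the same 26.1% and 7.67% of all genes. Nfkbia, the inhibitor of NF-kB, stood at 980 CPM, against 247 in monocytes, and Ier3 at 1353, against 505. Nfkbia had 1931 CPM in the GITR/Syn GA-aFuc mouse and 295 in the other 5, and Ier3 2432 and 575. In those 5 Zfp36 was below monocytes, at 295 against 456 CPM, and Tnfaip3 level with them, at 90.3 against 91.4. Nfkbiz, Egr1, Ptgs2 and Nlrp3 had 428, 271, 290 and 352 CPM in those 5, against 113, 104, 129 and 271 in monocytes. Csf3, Csf2, Il6, Cxcl5 and Ppbp had 0 UMIs in these barcodes.

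The other outside barcodes carried much less Cxcl2. Without the neutrophil-gene barcodes, outside barcodes had 185 and 133 CPM of Cxcl2 in the N297A mice, 188 in the GA-aFuc mouse, 511 in the GITR/Syn GA-aFuc mouse and 199 and 204 in the Untreated mice. With them the values were 209 and 143 CPM in the N297A mice, 260 in the GA-aFuc mouse, 1107 in the GITR/Syn GA-aFuc mouse and 221 and 208 in the Untreated mice. The GITR/Syn GA-aFuc mouse was highest both ways. The neutrophil-gene barcodes held 32.0% of the outside UMIs of Cxcl2 and 63.5% of those of Cxcl3.

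Cxcl1 was located elsewhere. The outside barcodes held 817 Cxcl1 UMIs, against 246 in all annotated cells, and 38 barcodes with at least 5 Cxcl1 UMIs held 624 of them (76.4%). These 38 were very deep, with a median of 66972 UMIs, and had 255 CPM of Cxcl1, 209 CPM of Cxcl2 and 0 Cxcl3 UMIs. They were called by their Cxcl1 count, so that level is a description. Fibroblast markers had UMIs in 34 of them, at 861 CPM in sum, against 674 CPM in the other outside barcodes and 16.6 in monocytes. Dcn stood at 471 and Col3a1 at 371 CPM, against 293 and 320 in the other outside barcodes. Col1a1, the remaining fibroblast marker, went the other way, at 19.6 CPM with UMIs in 12 of the 38, against 60.2 CPM. Dendritic cell markers had UMIs in 35 of the 38, at 155 CPM in sum, against 116 CPM in the other outside barcodes and 18.5 in monocytes. Only 4 of the 9 dendritic cell markers had a UMI in the 38, with Cd209a, Clec10a, Xcr1, Ccr7 and Siglech at 0. Ptprc stood at 22.9 CPM and was found in 19 of the 38, although the cells were sorted on CD45, and Krt8, Krt18 and Epcam were at 0. Macrophage markers summed to 825 CPM, with UMIs in all 38. Every mouse had such barcodes, with 10 and 4 in the N297A mice, 8 in the GA-aFuc mouse, 4 in the GITR/Syn GA-aFuc mouse and 5 and 7 in the Untreated mice. The Cxcl1 level of all outside barcodes was 25.4 and 11.0 CPM in the N297A mice, 13.3 in the GA-aFuc mouse, 13.2 in the GITR/Syn GA-aFuc mouse and 18.5 and 13.1 in the Untreated mice, and it showed no order by treatment.

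Across treatments, the annotated monocytes of the GITR/Syn GA-aFuc mouse had the highest level of all 3 ligands, followed by those of the GA-aFuc mouse. Cxcl1 had 0.224 and 1.31 CPM in the N297A mice, 10.8 in the GA-aFuc mouse, 13.6 in the GITR/Syn GA-aFuc mouse and 0.491 and 1.43 in the Untreated mice, on 1, 5, 37, 47, 2 and 8 UMIs. Cxcl3 had 3.14 and 0.262 CPM in the N297A mice, 17.6 in the GA-aFuc mouse, 91.7 in the GITR/Syn GA-aFuc mouse and 0 and 2.69 in the Untreated mice. S100a9 had 0.224 and 0.787 CPM in the N297A mice, 1.17 in the GA-aFuc mouse, 9.55 in the GITR/Syn GA-aFuc mouse and 0.245 and 0.538 in the Untreated mice. These S100a9 levels rest on 1, 3, 4, 33, 1 and 3 UMIs in the same order. For each of these genes both of these single mice lay above all 4 N297A and Untreated mice. Csf3r varied little, at 49.8 to 61.9 CPM.

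In monocytes 8 of the 9 genes passed the filter on low counts (all but Retnlg), and each comparison with the 2 Untreated mice was tested with edgeR over 11422 genes in a fit of 6 mice with 2 residual degrees of freedom. The 3 comparisons share the Untreated mice. In the GITR/Syn GA-aFuc mouse 2 of the 8 were called higher, against a background of 0.21% of genes. Cxcl1 rose by 3.70 on the log2 scale (SE 0.56, edgeR adjusted p = 0.0344) and S100a9 by 4.45 (SE 0.68, edgeR adjusted p = 0.0344). With 1 to 4 UMIs in every other mouse, S100a9 passed the filter only through the GITR/Syn GA-aFuc mouse, in which it was then called. Cxcl1 had only 1 to 8 UMIs in each N297A and Untreated mouse. It passed the filter only through the other 2 mice, where it was high, and 1 of these is the mouse of the call. Neither call is therefore independent of the filter. The same limit holds for Cxcl1 in the GA-aFuc mouse. A single cell held most of each count: 29 of the 47 Cxcl1 UMIs were in a monocyte of cluster 0 with 214 Cxcl2 UMIs, and 26 of the 33 S100a9 UMIs in a monocyte of cluster 27 that had 5 of the 6 neutrophil genes, 4483 UMIs and 2 UMIs each of the monocyte and macrophage markers. With the cell of the most UMIs of each gene left out in each mouse, Cxcl1 differed by 3.95, no smaller than before, but missed the threshold (edgeR adjusted p = 0.234), and S100a9 no longer passed the filter. Neither was called by DESeq2 or limma-voom, and without the second Untreated mouse S100a9 had an edgeR adjusted p of 0.0505.

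The other genes in the GITR/Syn GA-aFuc monocytes did not pass the test, with log2 differences of 1.51 for Cxcl2 (edgeR adjusted p = 0.816), 5.88 for Cxcl3 (0.353), 3.47 for Cxcr2 (0.580), 2.62 for S100a8 (0.679), 2.04 for G0s2 (0.572) and 0.15 for Csf3r (0.904). In the GA-aFuc mouse none of the 8 was called by edgeR, DESeq2 or limma-voom, against a background of 0.193%, and 4 had an unadjusted edgeR p under 0.05. There Cxcl1 differed by 3.35 (edgeR adjusted p = 0.0724), Cxcl3 by 3.48 (0.696), Cxcl2 by 1.05 (0.841) and Cxcr2 by 3.99 (0.305), with 10 of the 13 Cxcr2 UMIs in 1 cell. Without either N297A mouse, or without the second Untreated mouse, Cxcl1 passed in the GA-aFuc monocytes (edgeR adjusted p = 0.0323, 0.0348 and 0.0479), and without the first Untreated mouse Cxcl3 passed in those of the GITR/Syn GA-aFuc mouse (0.0367). In the N297A mice none was called by the same 3 tools, against 0.00876%, and 1 gene, G0s2, had an unadjusted edgeR p under 0.05 (log2 difference 1.86, adjusted p = 0.999). Cxcl2 differed there by 0.15 (edgeR adjusted p = 0.999).

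Cxcl2 in macrophages had the same order of mice as in monocytes at the top, with the GITR/Syn GA-aFuc mouse first and the GA-aFuc mouse next, and the difference again missed the threshold. None of the 5 genes that passed the filter was called by edgeR, DESeq2 or limma-voom in any comparison, against a background of 0.0148% for GITR/Syn GA-aFuc and for GA-aFuc and 0% for N297A over 13526 genes, with 2, 0 and 0 genes at an unadjusted edgeR p under 0.05. The log2 difference of Cxcl2 was 1.22 in the GITR/Syn GA-aFuc mouse (edgeR adjusted p = 0.954), 0.85 in the GA-aFuc mouse and 0.19 in the N297A mice. The 2 N297A mice differed from each other in Cxcl2 far more than the Untreated mice did, in both cell types. Without either N297A mouse, when the spread is estimated from the 2 Untreated mice alone, Cxcl2 passed in monocytes of the GITR/Syn GA-aFuc mouse (edgeR adjusted p = 0.000137 and 0.000179) and the GA-aFuc mouse (0.00251 and 0.00293), and in their macrophages (3.58e-05 and 4.33e-05 for GITR/Syn GA-aFuc, 0.00600 and 0.00673 for GA-aFuc), with differences of the same size. Cxcl3 also passed then in macrophages of the GITR/Syn GA-aFuc mouse, with a log2 difference of 3.67 to 4.04 over all left-out mice. It had 3.51 and 0.273 CPM in the N297A mice and 0.481 and 0.359 in the Untreated mice. The GA-aFuc mouse had 0.511 CPM and the GITR/Syn GA-aFuc mouse 6.23, with 27 of its 62 UMIs in 1 cell. Without the first N297A mouse, Cxcl3 passed the filter only through the GITR/Syn GA-aFuc mouse, so that call is not independent of the filter. Without the second N297A mouse, Cxcl2 and Cxcl3 passed in N297A macrophages as well, a group that was then 1 mouse. Cxcl2 differed there by 0.60 on the log2 scale, and 29 of the 35 Cxcl3 UMIs of that mouse were in 1 cell.

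**Figure D5:**
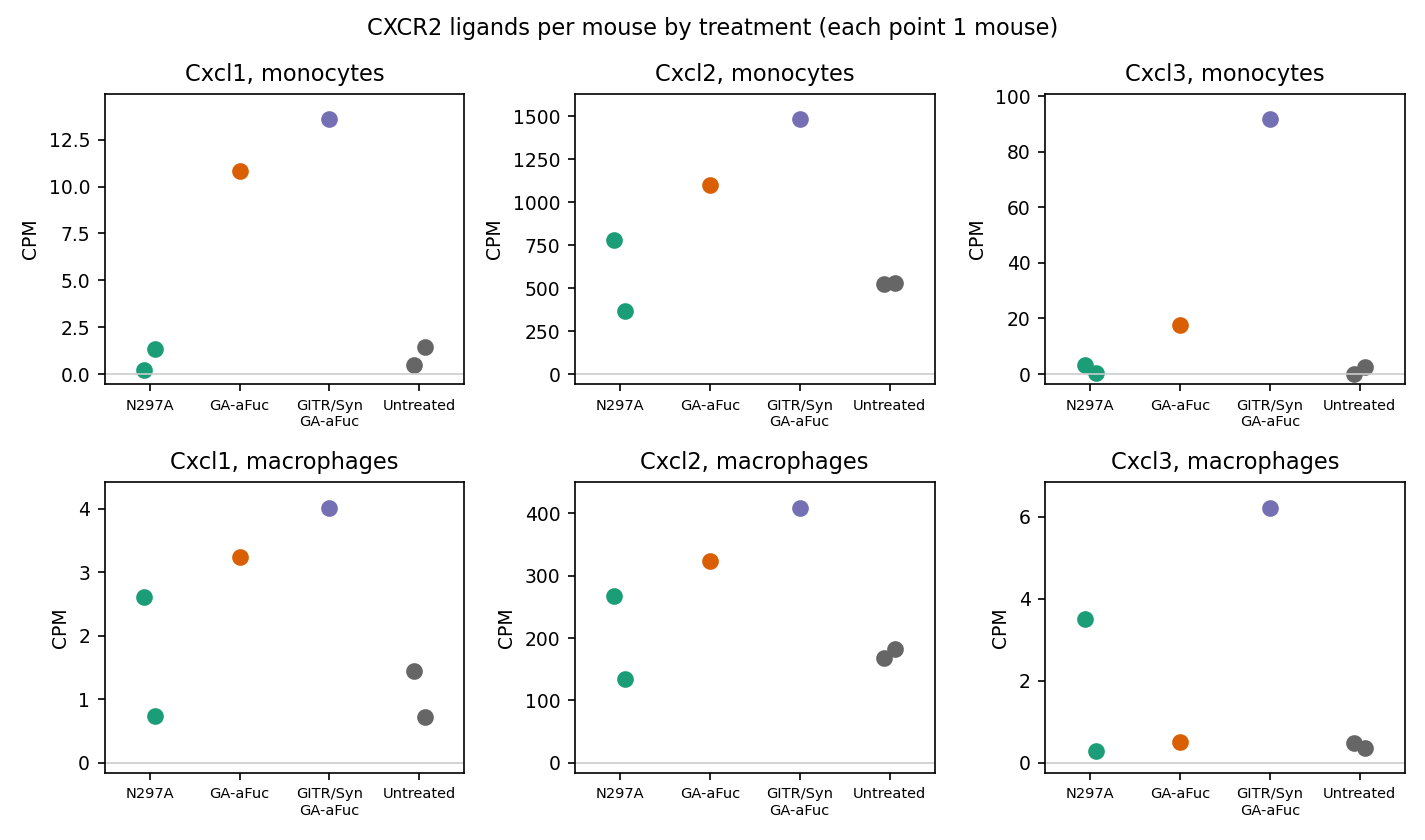
Levels of Cxcl1, Cxcl2 and Cxcl3 in CPM (linear axes that differ between panels) in annotated monocytes (top) and macrophages (bottom) by treatment. Each point is 1 mouse. In monocytes Cxcl2 stands at 1483 CPM in the GITR/Syn GA-aFuc mouse and 1097 in the GA-aFuc mouse, against 523 and 527 in the Untreated mice, while the N297A mice lie on both sides of the Untreated mice at 778 and 368.

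Among NK cells, CD8 T cells, cDC2 and all dendritic cells together, 1 of the 9 genes was called in 1 comparison, where 1 (NK cells, cDC2, all dendritic cells) or 2 (CD8 T cells) passed the filter. Cxcl2 rose in NK cells of the GA-aFuc mouse by 3.49 on the log2 scale (SE 0.43, edgeR adjusted p = 0.00482; background 0.0651%). A single cell held 153 of the 168 UMIs, and without the top cell of each mouse the difference was 0.21 (edgeR adjusted p = 0.999). Without either Untreated mouse it missed the threshold (edgeR adjusted p = 0.292 and 0.350). The background in NK cells was 0.0434% for GITR/Syn GA-aFuc and 0.0108% for N297A. In CD8 T cells it was 0.0922% for GA-aFuc, 0.154% for GITR/Syn GA-aFuc and 0.0205% for N297A, in cDC2 0.0676%, 0.135% and 0.0169% in the same order, and in all dendritic cells 0.0503%, 0% and 0.302%. None of the genes had an unadjusted edgeR p under 0.05 in these other comparisons, and DESeq2 and limma-voom called none of them.

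Related genes outside the 9 moved in few comparisons. Of the other neutrophil genes 1 of 11 tested in monocytes and 1 of 10 in macrophages was called, each in the GITR/Syn GA-aFuc mouse. Slpi rose in monocytes of the GITR/Syn GA-aFuc mouse by 3.49 on the log2 scale (edgeR adjusted p = 8.12e-07) and in its macrophages by 3.18 (edgeR adjusted p = 0.0136), beside the high neutrophil-gene barcode count of that mouse. Slpi stood at 787 CPM in the neutrophil-gene barcodes and 127 CPM in monocytes. The part of free or neighbouring RNA in these differences was not tested. Pf4 rose in monocytes of the GA-aFuc mouse by 1.57 (edgeR adjusted p = 0.0257), and Csf2, which encodes GM-CSF, in its CD8 T cells by 6.08 (edgeR adjusted p = 0.000576). Of 8 NF-kB feedback and early genes 1 was called in any treatment comparison, Nfkbiz, an NF-kB regulator, which fell by 2.21 on the log2 scale in NK cells of the GITR/Syn GA-aFuc mouse (SE 0.34, edgeR adjusted p = 0.0191).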

How the data were processed

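The UMI counts per gene and barcode were deposited by the authors as an unfiltered matrix, made with Cell Ranger 9.0.0 against GRCh38 and GRCm39, per the submitters' processing notes and the file headers; the sources used here do not say how cells were clustered and named. The genes and lists were chosen with earlier results of these data known. Of the entries of the cell table found in barcodes of at least 1000 mouse UMIs, 33 were left out for a hashtag of another treatment and 18 as repeated barcodes, which left 8716 cells; doublets were treated only by the limit of 20% on the second hashtag. Sums of the counts of a cell type in a mouse (at least 20 cells in each mouse) were tested with edgeR 4.0.16 (TMM, filterByExpr, robust quasi-likelihood, R 4.3.3), checked on simulated data. All mice shared 1 library, so no batch could be compared. Mice were separate animals, but 2 treatments had 1 mouse, and their tests assume that it varies like the mice of the other groups. Alternatives were DESeq2 1.42.0, limma 3.58.1 (voom), DESeq2's size factors, no filter, fits without deep cells or top cells, each mouse left out and no mouse block. The planned test of the ligands in neutrophil-gene barcodes was not run for want of barcodes. All genes were named; genes alike in pattern are the 5 with the highest r. Exact intervals (95%) and the limit of 3 counts cover counting error only.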

Additional observations from a re-analysis of the deposited data

Results flagged for a closer look

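Among the treatment differences, 4 pairs had opposite directions in 2 cell types, every mouse of the treatment lying above both Untreated mice in one and below both in the other. In the GA-aFuc mouse Csf3r differed from Untreated by 0.20 on the log2 scale in macrophages and 0.086 in monocytes, and by -1.71 in CD8 T cells. In the same mouse S100a9 differed by 1.43 in monocytes and -1.05 in macrophages. In the GITR/Syn GA-aFuc mouse Csf3r differed by 0.15 in monocytes and -1.73 in CD8 T cells. The differences between cell types were not tested, each rests on 1 mouse, and none of these values passed the test against Untreated. Csf3r in CD8 T cells rested on 3 UMIs in each of these mice. S100a9 in the GA-aFuc mouse rested on 4 UMIs in monocytes, against 1 and 3 in the Untreated mice. In macrophages it rested on 4 UMIs, against 10 and 5.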

How the results depend on the processing

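The 4 cell type differences of Cxcl2 and of Csf3r kept their direction and passed under every alternative, and without the replicate block, which pairs cell types of the same mouse, Cxcl2 in monocytes was 1.82 above macrophages on the log2 scale (edgeR adjusted p = 0.000455) and Csf3r 0.77. With no filter on low counts 8, 8 and 6 of the 9 genes were called (monocytes against macrophages, monocytes against CD8 T cells, cDC2 against monocytes). The background in these fits was 6330, 9426 and 4539 of 24755 genes. In GITR/Syn GA-aFuc monocytes the 2 calls became 0 with DESeq2, limma-voom or without top cells, 1 without the 5% of cells with the most UMIs, and 1 to 3 with each mouse left out. The NK call was lost with DESeq2 and without top cells, and numbered 0 to 1 with each mouse left out. Leaving out each mouse gave 0 to 2 calls in GA-aFuc monocytes and in GITR/Syn GA-aFuc and N297A macrophages, and 0 to 1 in GA-aFuc macrophages. Without N297A replicate 1, Cxcl2 in N297A mice reversed to -0.48 in monocytes and -0.39 in macrophages (ranges over left-out mice -0.48 to 0.59 and -0.39 to 0.60). The count of 70 neutrophil-gene barcodes was 56 to 100 under other limits and 7 without barcodes with a Cd3 or C1q UMI (0.271% in the GITR/Syn GA-aFuc mouse). Cxcl2 and Cxcl3 in them were 9805 and 1204 CPM with at least 2 genes, 11375 and 1231 with at least 4, 10597 and 1192 with any second hashtag, and 46407 and 0 without Cd3 or C1q barcodes. After the data were seen, they were 25439 and 2948 under 5000 UMIs and 12056 and 1521 with at least 2 of Cxcr2, Csf3r, Retnlg and G0s2. With each mouse of the 2-mouse groups left out they were 15109 to 16601 and 1812 to 1955 CPM. The causes were not tested. Of 404 alternative values, 372 kept direction and call. Depth limits Cxcl1 in the neutrophil-gene barcodes and all 7 sparse genes in annotated cells.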
